A study of Penicillium oxalicum with 6 samples.

Results

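The 86 transcripts described here were the most abundant ones of Penicillium oxalicum mycelium whose mean level in the PoxTMA7 deletion mutant lay within 2-fold of that in wild type. They were chosen from 9137 genes listed in any library by 2 values. Their mean over 6 libraries was at least 316 FPKM (a fragment count scaled by gene length and library depth), and the mean of the ΔPoxTMA7 libraries divided by that of the WT libraries was above 0.5 and below 2. Of the 102 genes at that level, 86 met the ratio and 16 did not, 10 of them lower and 6 higher in ΔPoxTMA7. Level and ratio are therefore properties of the choice and are given below as a description. All 86 passed the filter on low values that was applied to the whole table.

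Penicillium oxalicum HP7-1 is a filamentous fungus that secretes cellulases, xylanases and amylases. ΔPoxTMA7, a knockout of PoxTMA7 made in the wild type (3 libraries), was compared with the wild type itself (WT, 3 libraries). Spores taken from potato dextrose agar plates (4 days at 28 °C) were grown for 24 h on glucose, and the cultures of both strains then spent 24 h in the test medium. The treatment label and the design text give 1% Avicel, a microcrystalline cellulose, as carbon source, whereas the protocol text gives raw starch, and the disagreement was not resolved. Whether the mutant libraries came from 1 transformant or several, and from separate cultures, the labels do not say, so the spread between libraries may be technical. The comparison was made to learn how PoxTMA7 bears on the production of cellulase and xylanase.

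TMA7 takes its name from budding yeast, where it was found among proteins associated with the translation machinery. In growing fungal mycelium, the most abundant messenger RNAs usually include those of ribosomal proteins, translation elongation factors, histones, glycolytic enzymes and chaperones, and in cellulolytic fungi on cellulose also those of secreted hydrolases. Which of the 86 transcripts belong to these classes cannot be said from the tables, which hold identifiers with no names or products. None of the 86 identifiers matched the reference gene table, so product groups, sequences and genome positions were not analysed here. In what follows a transcript is called by its identifier or by its rank among the 86, where rank 1 has the highest mean.

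Depth did not limit these transcripts. The read totals recovered from the FPKM steps were 13269238 to 20808413 in the ΔPoxTMA7 libraries and 11665908 to 16508834 in the WT libraries. Each of the 86 was covered by 4994 to 595245 reads per library, with a median of 32560.5. By counting error alone a value would vary by 1.42% at the lowest of these read numbers and by 0.554% at the median. FPKM is a share of the library, so a change in the RNA content of each cell, or in the number of cells of one kind, cannot be told apart from a change in a transcript's own level.

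Together the 86 transcripts held 35.8%, 38.1% and 34.2% of the FPKM sum in ΔPoxTMA7 replicates 1, 2 and 3, and 35.2%, 36.1% and 35.3% in the WT replicates. The shares averaged 36.0 ± 1.97% in ΔPoxTMA7 and 35.5 ± 0.521% in WT (SD, n = 3 each), and the WT shares lay within the span of the ΔPoxTMA7 shares. Counted as reads, the shares were 33.3% to 36.9% in ΔPoxTMA7 and 33.9% to 34.8% in WT. The 15 highest transcripts alone held 19.3%, 22.0% and 18.3% in ΔPoxTMA7, against 18.0%, 18.7% and 17.6% in WT.

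Levels within the set spanned 18.8-fold, with means over 6 libraries of 317 to 5947 FPKM and a median of 495 FPKM. Of the 86, 23 averaged at least 1000 FPKM, 19 lay from 500 to 1000 FPKM, and 44 lay under 500 FPKM. Of the 86, 56 were among the 100 highest genes of every library. Only 2 of the 86 left the 200 highest genes in any library, and the lowest rank reached was 268.

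**Figure D1:**
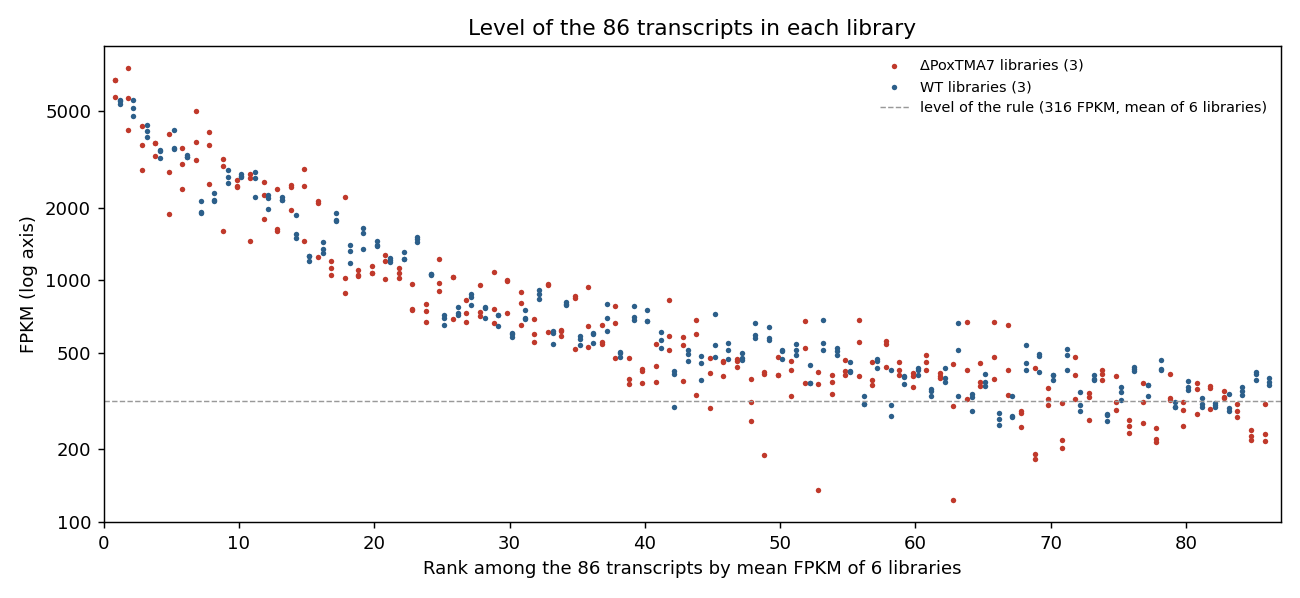
FPKM on a log axis (vertical) of the 86 transcripts in order of their mean over 6 libraries (horizontal), with 1 point per library, ΔPoxTMA7 in red and WT in blue, and the level of 316 FPKM as a dashed line. The ΔPoxTMA7 points of a transcript are more widely spread than its WT points in most transcripts, and they lie on both sides of the WT mean in 30 of the 86.

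POX_3g04266 was the most abundant transcript of the series. It had 6714, 6731 and 5753 FPKM in ΔPoxTMA7 replicates 1, 2 and 3, and 5536, 5596 and 5349 FPKM in the WT replicates. All 3 ΔPoxTMA7 values lay above the WT values, at a ratio of means of 1.16. It was the highest gene in every library except ΔPoxTMA7 replicate 2, where POX_4g05217 was higher.

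POX_4g05217, at rank 2, had 5695, 7586 and 4197 FPKM in ΔPoxTMA7 and 4799, 5571 and 5158 FPKM in WT. Its ΔPoxTMA7 values spanned 1.81-fold and enclosed those of WT, at a ratio of means of 1.13. POX_1g00713, at rank 3, had 3644, 4355 and 2853 FPKM in ΔPoxTMA7 and 4164, 4376 and 3899 FPKM in WT. Of its ΔPoxTMA7 values, that of replicate 2 lay among the WT values and the others lay below them, at a ratio of 0.872.

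POX_8g10108, at rank 4, had 3280.0, 3700.0 and 3682 FPKM in ΔPoxTMA7 and 3429, 3197 and 3473 FPKM in WT (ratio 1.06). These ΔPoxTMA7 values lay within 1.13-fold of each other and overlapped those of WT. POX_2g02083, at rank 5, had 4038, 2818 and 1887 FPKM in ΔPoxTMA7 and 3480.0, 4182 and 3515 FPKM in WT. Its ΔPoxTMA7 libraries lay 2.14-fold apart, with replicate 1 inside the WT span and replicates 2 and 3 below it, although the ratio of means was 0.782. POX_4g05251, at rank 6, had 2389, 3028 and 3535 FPKM in ΔPoxTMA7 and 3224, 3237 and 3315 FPKM in WT. Its WT values lay within 1.03-fold of each other, and the ΔPoxTMA7 values lay to both sides of them, at a ratio of 0.916.

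Over the 86, the ratio of the ΔPoxTMA7 mean to the WT mean had a median of 0.953, with quartiles of 0.776 and 1.22. The choice of members bounds each ratio between 0.5 and 2. The ratio was above 1 in 39 and below 1 in 47. It lay within 1.1-fold in 19, within 1.25-fold in 39 and within 1.5-fold in 62 transcripts. The remaining 24 stood 1.5-fold or more from WT, 9 of them higher and 15 lower. The set thus kept its level within 2-fold as group means, by construction, and less closely in single libraries: in 14 of the 86 at least 1 ΔPoxTMA7 library lay outside 0.5 to 2 times the WT mean.

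The median log2 change, on the log2(FPKM + 1) scale used for all tests, was -0.090 over the 86 transcripts and 0.11 over the 6743 genes tested. Median-ratio scaling, which sets the median over all tested genes close to 0, gave -0.21 for the 86. Quantile normalization gave -0.046 for the 86 and 0.021 over the tested genes. The sign of a transcript near the WT level depends on the scaling. POX_8g10108, for example, had a log2 change of 0.077 with the deposited scaling and -0.047 with median-ratio scaling.

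**Figure D2:**
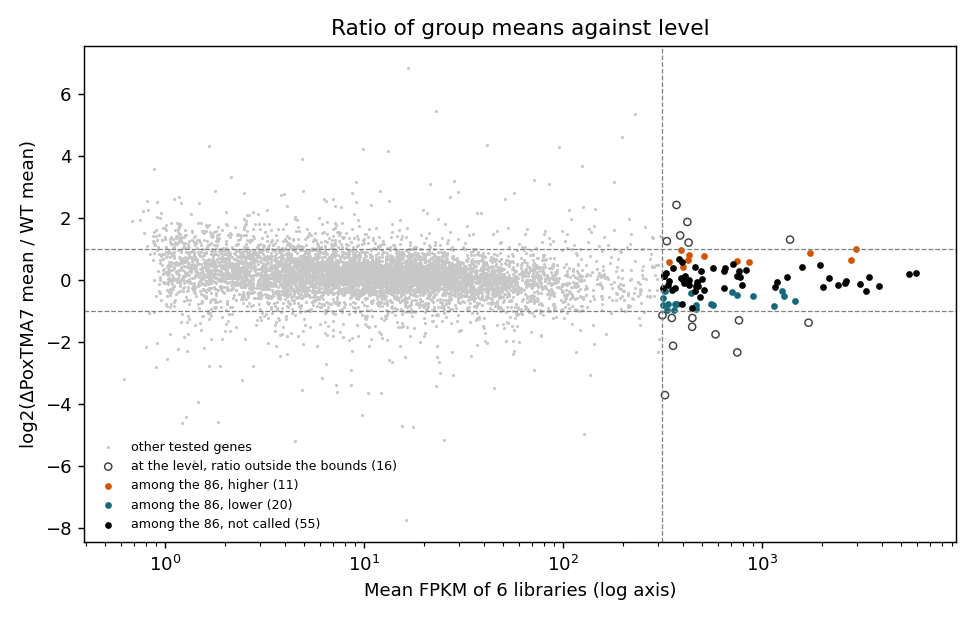
log2 of the ΔPoxTMA7 mean over the WT mean (vertical) against the mean FPKM of 6 libraries on a log axis (horizontal) for the tested genes, with the bounds of the choice as dashed lines. The 86 transcripts fill the band right of 316 FPKM, 11 called higher in orange, 20 called lower in teal and 55 not called in black, and open circles mark the 16 abundant genes outside the band.

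The test across all genes (limma on log2(FPKM + 1), Benjamini-Hochberg adjusted p under 0.05) called 31 of the 86, 11 higher and 20 lower in ΔPoxTMA7, and left 55 uncalled. The same test called 48.0% of the 6743 tested genes, 30.8% higher and 17.2% lower. Because the 86 were chosen on the ratio that this test measures, their count is a description and no p is given for single transcripts. The count of calls fell when a WT library was left out: it was 17 without WT replicate 1, 20 without WT replicate 2 and 16 without WT replicate 3. Genes called over the whole table fell as well, from 3238 to 2265, 2344 and 2152 in the same order. The split depended on the scaling, with 7 higher and 26 lower under median-ratio scaling and 15 higher and 14 lower under quantile normalization. The 3 ΔPoxTMA7 values lay wholly above the WT values in 16 and wholly below them in 28 of the 86, against 38.6% and 21.6% of all tested genes, and the groups overlapped in 42. Over all tested genes the groups did not overlap in 60.1%.

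The 11 transcripts called higher had ratios of 1.33 to 1.999, with a median of 1.56, and none of them overlapped between groups. The matching share over all genes called higher is not given here. POX_1g00573, at rank 7, had the largest increase, with 3142, 3732 and 5028 FPKM in ΔPoxTMA7 and 1900.5, 2135 and 1918 FPKM in WT. Every ΔPoxTMA7 value was above every WT value, at means of 3967 ± 965 and 1984 ± 131 FPKM (SD, n = 3 each), and the ratio of 1.999 put it just inside the upper bound. POX_5g07120, at rank 66, had 484, 669.9 and 390 FPKM in ΔPoxTMA7 and 253, 282 and 268 FPKM in WT. Its means were 515 ± 143 and 268 ± 14.7 FPKM, a ratio of 1.92, with ΔPoxTMA7 replicate 2 the highest. Both were also called without any single library.

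The 20 transcripts called lower had ratios of 0.511 to 0.780, with a median of 0.580, and the groups overlapped in 1 of them. For all genes called lower the matching share is not given here. POX_8g10105, at rank 71, had the largest decrease, with 202, 313 and 219 FPKM in ΔPoxTMA7 and 519, 426 and 492 FPKM in WT. The means were 245 ± 59.4 and 479 ± 47.8 FPKM, a ratio of 0.511. POX_8g10147, at rank 78, had 244, 221 and 215 FPKM in ΔPoxTMA7 and 428, 430 and 470 FPKM in WT. Here both groups were tight, at 227 ± 15.5 and 443 ± 23.6 FPKM, and the ratio was 0.512. Both were also called without any single library.

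The 55 uncalled transcripts had ratios of 0.531 to 1.60. All 39 transcripts within 1.25-fold of WT were among them, and 3 stood 1.5-fold or more from WT. In 14 of the 55 the groups did not overlap. The matching share over the uncalled tested genes is not given here, so this count is a description only. POX_1g00522, at rank 62, was closest to an equal mean, with 393, 401 and 413 FPKM in ΔPoxTMA7 and 379, 394 and 432 FPKM in WT (ratio 1.002). POX_2g02655, at rank 55, followed with 405, 422 and 468 FPKM in ΔPoxTMA7 and 423, 417 and 461 FPKM in WT (ratio 0.995). In both the libraries of the 2 genotypes were interleaved.

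Among the uncalled transcripts, POX_3g04796 at rank 63 was the most variable in both genotypes. It had 123, 302 and 450 FPKM in ΔPoxTMA7 and 517, 333 and 664 FPKM in WT, a span of 3.65-fold in the mutant and 1.996-fold in WT. POX_7g09860, at rank 53, had 374, 135 and 418 FPKM in ΔPoxTMA7 and 549, 513 and 684 FPKM in WT. Its ΔPoxTMA7 values all lay below the WT values, with replicate 2 far below the others, and the ratio of 0.531 was the lowest of the uncalled transcripts. POX_3g04182, at rank 45, had 297, 412 and 478 FPKM in ΔPoxTMA7 and 482, 540 and 728 FPKM in WT, again without overlap, at a ratio of 0.679. Both of these non-overlapping transcripts were called under some alternatives. POX_7g09860 was called without any one of the ΔPoxTMA7 libraries, and POX_3g04182 without ΔPoxTMA7 replicate 3. Both were also called with median-ratio scaling and with a replicate block. POX_2g02083, at rank 5, was called lower without ΔPoxTMA7 replicate 1.

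**Figure D3:**
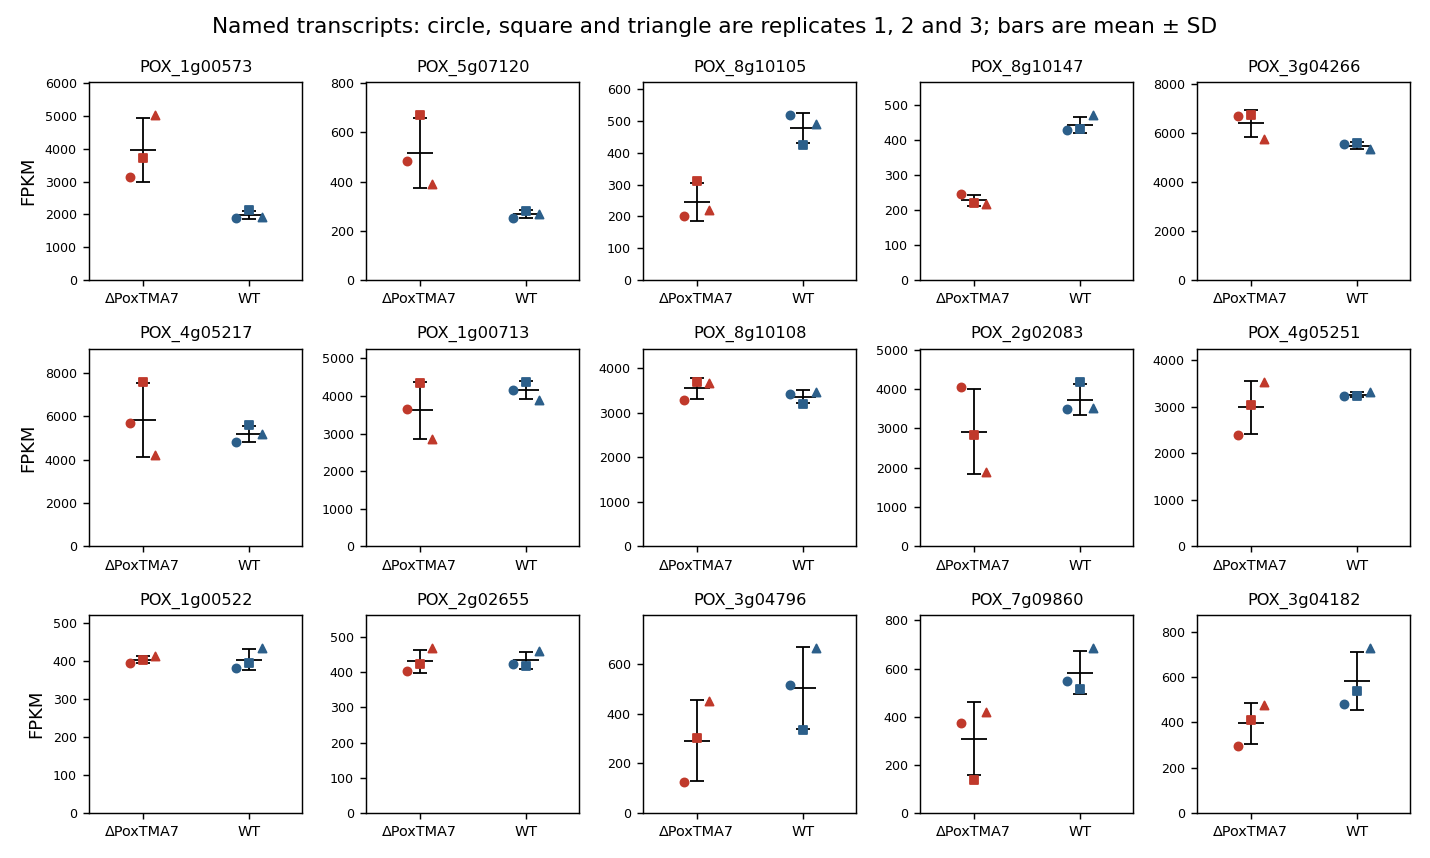
FPKM (vertical) of the 15 named transcripts in the ΔPoxTMA7 (left, red) and WT (right, blue) libraries, with circles, squares and triangles for replicates 1, 2 and 3 and bars for mean ± SD. The first 4 panels show no overlap between genotypes, and the ΔPoxTMA7 bars are longer than the WT bars in most panels.

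By level, the lowest 2 inside had means of 316.86 and 316.88 FPKM, and the highest 2 outside that met the ratio had 315 and 311 FPKM. At the lower ratio bound the nearest 2 inside were at 0.511 and 0.512 and the nearest 2 outside at 0.452 and 0.426. At the upper bound they were at 1.999 and 1.92 inside and at 2.30 and 2.37 outside.

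The 86 were chosen on group means and not on the spread within a group, and this spread differed between the genotypes in most of the 86 transcripts. The SD of log2(FPKM + 1) among the 3 libraries was larger in ΔPoxTMA7 than in WT in 80 of the 86 (93.0%), against 77.0% of all tested genes. With median-ratio scaling these shares were 87.2% and 71.5%. The median SD over the 86 was 0.229 in ΔPoxTMA7 and 0.075 in WT, and over all tested genes 0.150 in ΔPoxTMA7 and 0.083 in WT. On the scale of FPKM, the SD was 2.44% to 56.0% of the mean in ΔPoxTMA7, with a median of 15.9%, and 0.795% to 32.9% in WT, with a median of 5.22%. The values of different transcripts come from the same 6 libraries, so these counts describe the libraries and were not tested.

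The ΔPoxTMA7 spread remained the wider one when any 1 of its libraries was left out. ΔPoxTMA7 replicate 1 stood apart from the other ΔPoxTMA7 libraries over all tested genes, with correlations of 0.976 and 0.971 to replicates 2 and 3, against 0.991 between those. Without it the median SD of the 86 was 0.144, and it was 0.224 without replicate 2 and 0.178 without replicate 3, whereas WT pairs gave 0.050 to 0.077. The SD was then larger in ΔPoxTMA7 than in WT in 61 of the 86 without replicate 1, 71 without replicate 2 and 64 without replicate 3. The same counts over all tested genes were 59.0%, 69.3% and 64.2%. These counts set an SD of the remaining ΔPoxTMA7 libraries against an SD of all 3 WT libraries. They are therefore not like for like with the counts over all libraries.

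Next to the 199 genes of the tier below, from 100 FPKM up to 316 FPKM with the same bounds on the ratio, the 86 transcripts had a higher median SD in the mutant and one close to it in WT. The median SD of the lower tier was 0.167 in ΔPoxTMA7 and 0.073 in WT. Without ΔPoxTMA7 replicate 1 it was 0.087, against the 0.144 of the 86. The SD was larger in ΔPoxTMA7 than in WT in 83.9% of the lower tier, against 93.0% of the 86. A range of 2-fold or more among the 3 libraries was seen in 8 of the 86 (9.30%) in ΔPoxTMA7 and in 0 of the 86 in WT. In the lower tier it was seen in 7.04% of genes in ΔPoxTMA7 and 0.503% in WT, and over all tested genes in 6.36% and 1.28%. The tier was defined after the values were seen, and the difference from it was not tested.

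**Figure D4:**
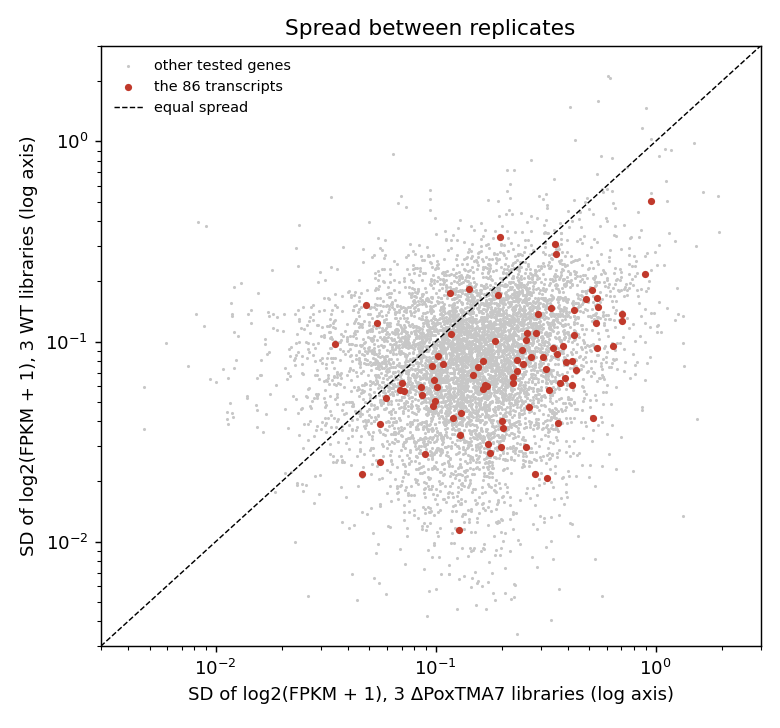
SD of log2(FPKM + 1) among the 3 ΔPoxTMA7 libraries (horizontal) and among the 3 WT libraries (vertical), both on log axes, for the tested genes in grey and the 86 transcripts in red. Of the 86 points, 80 lie below the dashed line of equal spread, that is, with the larger SD in ΔPoxTMA7.

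In the 15 highest transcripts, ΔPoxTMA7 replicate 2 was the highest of the 3 in 11 and the lowest in 0. Replicate 3 was the lowest in 8 and the highest in 3 of these 15, and replicate 1 the lowest in 7 and the highest in 1. Over the 86 the order was more mixed: replicates 1, 2 and 3 were highest in 26.7%, 33.7% and 39.5%, and lowest in 41.9%, 20.9% and 37.2%. Over all tested genes they were highest in 33.3%, 12.4% and 54.3%, and lowest in 40.9%, 42.7% and 16.4%. These shares depended on the scaling. With median-ratio scaling, whose factors were 1.03, 0.999 and 1.11 for ΔPoxTMA7 replicates 1, 2 and 3, they were highest in 30.2%, 50.0% and 19.8% of the 86, and lowest in 37.2%, 15.1% and 47.7%. Over all tested genes they were then highest in 38.8%, 29.7% and 31.5%, and lowest in 41.3%, 23.9% and 34.7%. Replicate 3 was thus highest in the largest share of the 86 with the deposited scaling and in the smallest with median-ratio scaling.

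In 43 of the 86 transcripts at least 1 ΔPoxTMA7 library lay at least 1.25-fold beyond both others. The share over all tested genes is given below for each library and direction. These counts and shares are with the deposited scaling only. The shares by library order given above changed with median-ratio scaling, also over all tested genes, so the contrasts below may depend on the scaling. Replicate 3 was the low one in 9 (10.5%, against 2.09% of all tested genes), and in all 9 the genotypes overlapped. How often the genotypes overlapped in such genes of the whole table is not given here. Of these 9, 5 were among the 15 highest: POX_4g05217, POX_1g00713 and POX_2g02083, described above, and POX_3g04876 and POX_4g05980, named here after their values were seen. POX_3g04876, at rank 9, had 2983, 3172 and 1604 FPKM in ΔPoxTMA7 and 2862, 2687 and 2517 FPKM in WT. POX_4g05980, at rank 11, had 2644, 2749 and 1453 FPKM in ΔPoxTMA7 and 2817, 2658 and 2213 FPKM in WT. ΔPoxTMA7 replicates 1 and 2 lay above every WT value in POX_3g04876 and within the WT span in POX_4g05980. In both transcripts replicate 3 lay well below the WT values.

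Replicate 2 was the high one in 8 of the 86 (9.30%, against 1.19% of all tested genes). Replicate 1 was the low one in 14 (16.3%, against 11.8%) and the high one in 8 (9.30%, against 9.83%), shares closer to those of all genes. Replicate 2 was the low one in 5 (5.81%, against 6.54%) and replicate 3 the high one in 5 (5.81%, against 8.85%). In both cases the share of the 86 was below that of all tested genes. In 3 transcripts, also named after their values were seen, replicate 1 was the high one and replicate 2 the low one. POX_3g05139 had 679, 376 and 525 FPKM in ΔPoxTMA7, POX_2g03206 had 674, 323 and 425 FPKM, and POX_3g04902 had 652, 336 and 426 FPKM. Their WT values were 375 to 446 FPKM, 289 to 339 FPKM and 273 to 334 FPKM, in the same order. POX_1g00702, at rank 18 and likewise named after its values were seen, had 2202 FPKM in ΔPoxTMA7 replicate 1 and 886 and 1026 FPKM in replicates 2 and 3, against 1179, 1401 and 1324 FPKM in WT. Its ratio of means, 1.05, thus averaged a library above WT and a pair below it.

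**Figure D5:**
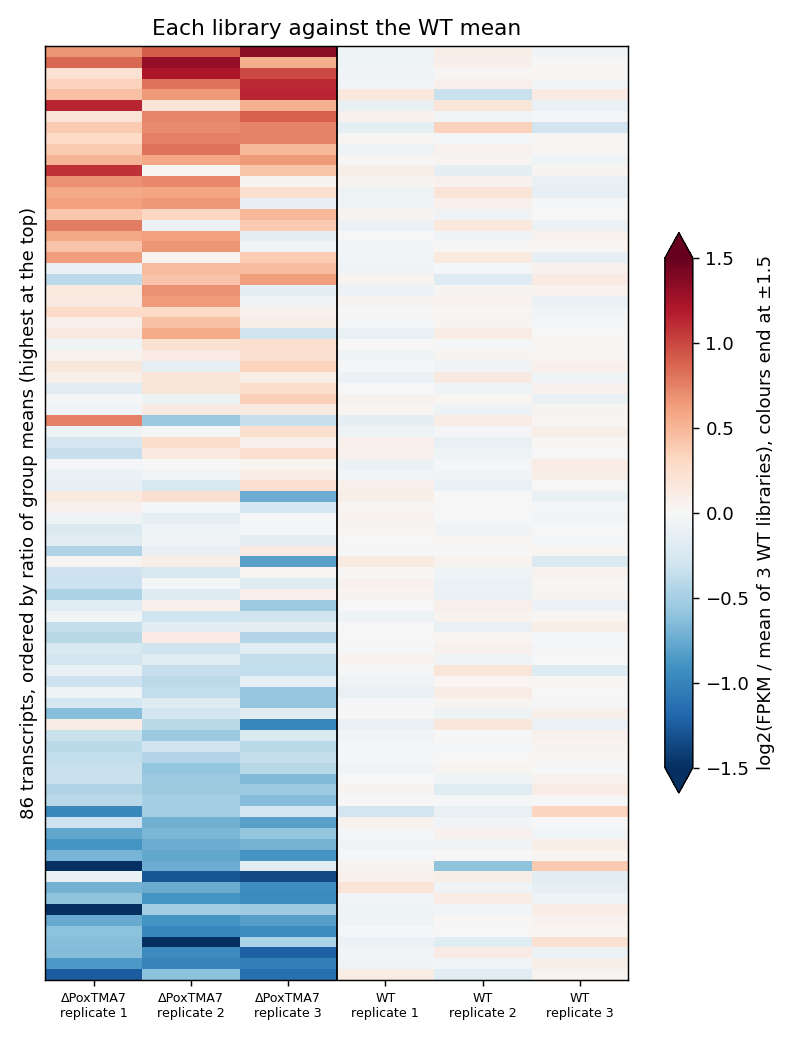
log2 of each library's FPKM over the mean of the 3 WT libraries (colour), with the 86 transcripts as rows in order of their ratio of group means and the ΔPoxTMA7 libraries as the columns left of the line. WT columns are mostly pale, and ΔPoxTMA7 columns carry rows in which 1 library departs from the other two.

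Across the 86 transcripts, levels correlated less well between ΔPoxTMA7 libraries than between WT libraries. Pearson's r of log2(FPKM + 1) was 0.909 to 0.951 within ΔPoxTMA7, 0.983 to 0.993 within WT and 0.872 to 0.915 between genotypes. Over all tested genes the order was the same, with 0.971 to 0.991 within ΔPoxTMA7, 0.993 to 0.995 within WT and 0.918 to 0.957 between genotypes. The values for the 86 are correlations over 86 genes of shared libraries and of a narrow range of levels, given as a description.

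The identifiers of the 86 were spread over the 8 main identifier groups, the digit that precedes g, whose meaning the files do not state. Group 8 held 12 of the 86 among its 364 tested genes, or 3.30 per 100, and the other groups held 0.654 to 1.97 per 100. Of the 86, 12 transcripts fell into 5 runs of consecutive identifiers, 4 pairs and a run of 4. The same count over other genes is not given here, and identifiers were not tied to genome positions. The runs are therefore a description only.

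The run of 4 was POX_8g10105 to POX_8g10108, of which POX_8g10106 and POX_8g10107 are named for their place in it. POX_8g10105 was called lower, as given above, and the other members were not called. POX_8g10106, at rank 22, had 1069, 1020 and 1126 FPKM in ΔPoxTMA7 and 1228, 1315 and 1229 FPKM in WT (ratio 0.852). POX_8g10107, at rank 59, had 407, 426 and 458 FPKM in ΔPoxTMA7 and 374, 404 and 398 FPKM in WT (ratio 1.10), and POX_8g10108 is given above. Of the 4 pairs, 1 had both members called lower and 1 had no member called. In each of the other 2 pairs 1 member was called higher, with a partner at a ratio of 1.60 or 0.920 that was not called.

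Gene lengths implied by the FPKM steps did not set the 86 far apart from other genes. Their median was 3765 bp, with quartiles of 3238 and 4339 bp, against 3892 bp, with quartiles of 3233 and 4671 bp, over all tested genes. The shortest was 1428 bp and the longest, that of POX_3g04902, 8396 bp. These are the lengths used for scaling by the authors and not measured transcript ends.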

How the data were processed

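Poly(A)-selected RNA from mycelium was sequenced in 3 ΔPoxTMA7 and 3 WT libraries. The authors deposited 1 table of FPKM values per library, per the file headers, and an absent identifier was set to 0. The submitters' processing notes name bcl2fastq; aligner, counter, genome build, annotation and strandedness are not stated in the labels or headers. Read totals and gene lengths were recovered as the whole numbers that give the FPKM values, within 0.02 reads for 100% of the 9137 genes, and the reads recovered sum to 99.6% to 99.7% of the totals. For genes with few reads the recovered numbers can be too low by a common factor.

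The 6743 genes that reached 1 FPKM in 3 or more libraries were tested with limma 3.58.1 in R 4.3.3 on log2(FPKM + 1), with genotype as the term, an abundance trend and two-sided Benjamini-Hochberg adjusted p-values. The fit was also run on simulated data with equal spread in both genotypes. The spread of the real libraries was unequal, so no result here rests on that run. Summaries used Python 3.11.15, NumPy 2.4.6 and pandas 2.3.3. Depths are in the report, and counting errors there cover sampling of reads only.

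The 86 members and the sets described were chosen with earlier results of these data known. Named transcripts were, among those called, the 2 that rose most and the 2 that fell most; among those not called, the 6 highest, the 2 with the ratio nearest 1, and the 2 most variable in each genotype. Others named are marked in the text. No identifier matched the 9964 genes of the reference table, so lists by product were not analysed here, and neither was PoxTMA7 itself. Alternatives were other pseudocounts, filters, scalings, limma-voom on recovered reads, a replicate block and leaving out each library.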

Additional observations from a re-analysis of the deposited data

How the results depend on the processing

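The counts of members called and of genes called kept within 1.5 times of the reported values under every pseudocount, filter and trend setting, quantile normalization, limma-voom and the replicate block, except that median-ratio scaling gave 7 in place of 11 members higher. No reported member call had the opposite sign under any setting. Leaving out 1 library gave 16 to 44 members called (5 to 16 higher, 11 to 28 lower) and 2152 to 3733 genes called (747 to 1461 lower). Fewer libraries give less power by construction, yet without ΔPoxTMA7 replicate 1 the counts rose to 44 members and 3733 genes. Without ΔPoxTMA7 replicate 2 they were 31 members and 2549 genes. Without ΔPoxTMA7 replicate 3 they were 36 members and 2491 genes, so the members called rose there as well. Whether equal numbers mark paired libraries could not be decided from the values, with 3 libraries per group. Deviations of equally numbered libraries had r of 0.022, 0.033 and 0.173, and those of the other pairs -0.152 to 0.091. Some libraries correlated best with their own number and others did not. With the replicate block 30 members and 2995 genes were called, 27 of the 31 reported members and 3 others, POX_7g09860 and POX_3g04182 among them.

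A level of 200 FPKM gave 137 members and one of 500 FPKM 42; the other rules gave 62 to 84. As reads, the WT share was 34.2%. The median log2 ratio of means, -0.070 as reported, was -0.19 with median-ratio scaling, and -0.11 to -0.048 without 1 library. The median SD was 0.144 to 0.224 in ΔPoxTMA7 and 0.050 to 0.077 in WT without 1 library. Depth does not limit transcripts at this level. Counts by library order and of the larger SD, under other settings, were added after seeing the data.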
